A study of Mus musculus with 18 samples.

Results

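The 35 genes described here are interferon-stimulated genes, measured as single-cell RNA in the stomach epithelium of mice. They were chosen as a set from these same data, by comparing mature pit cells with pre-pit cells and the other cell types. The differences between mature pit cells and other types are therefore given below as a description and carry no test. Not every gene of the set was higher in mature pit cells. They are 35 of the 31201 genes listed in the count tables of both datasets, with 35 listed in dataset 1 and 34 in dataset 2, where Ifit1bl2 had no entry. By role they are 6 genes of the IFIT family, 5 of the OAS family, 4 transcription factors, 3 sensors of foreign nucleic acid, 3 genes of ADP-ribosylation, 2 of the ISG15 system and 12 other antiviral effectors. All mice were wild-type C57BL/6J males 10 weeks old, and no group was treated. Dataset 1 held gastric units of corpus and antrum together, so the region of a cell was known only through its cluster, and dataset 2 held corpus cells from a changed dissociation protocol. Each dataset had 2 pools of 3 mice (pools 1 and 2, pools K and T), each prepared by a different operator, so that pool and operator cannot be told apart. Plates within a pool were technical repeats.

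Interferons are secreted proteins that warn cells of infection. Type I and type III interferons bind separate receptors that share the JAK kinases, and a complex that holds STAT2 and IRF9 then switches on genes that carry an interferon-stimulated response element. Interferon gamma acts through another receptor. The products of the switched-on genes bind viral RNA, block translation, tag proteins with ISG15 or sense nucleic acid, and many are kept at a low level by interferon signalling in uninfected tissue. Pit cells are the mucus-secreting cells that line the gastric surface, and they arise from isthmus cells through pre-pit cells.

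Dataset 2 held 3993 cells on 12 plates, of 10540256 to 12850942 UMIs each (a UMI is 1 counted RNA molecule), and dataset 1 held 491 cells on 6 plates of 3054370 to 5346035 UMIs. The median cell had 31020 UMIs in dataset 2 and 38757 in dataset 1. Well barcodes were reused between plates, with 384 of 384 on more than 1 plate in dataset 2 and 145 of 296 in dataset 1, so cells were identified by plate and barcode. The pit markers Gkn1, Gkn2, Muc5ac and Tff1 summed to 146200 and 149000 CPM (UMIs per 1000000 of all UMIs of a type's cells in a pool) in the mature pit cells of pools K and T. Aqp3, the marker of mature pit cells, was at 9.70 CPM in pool K and 76.0 in pool T, above 1.41 and 3.80 in pre-pit cells, but had a UMI in only 10 of 46 and 12 of 71 mature pit cells of the 2 ranges described below. Krt7 and Krt20, which mark antral pit cells, summed to 9.23 and 131 CPM in the mature pit cells of pools K and T. Leukocyte markers were at 0 there in both pools, and those of stromal, endothelial, tuft cells and macrophages were at 0 to 0.688 CPM. Levels below are in the same unit. Since the deposited clusters rest on these very cells and genes, no test between them is independent of how they were formed.

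Promoters of 4 of these genes are shown as examples, Isg15 and Ifit1 from the genes mostly detected together with Isg15 and Oasl1 and Samd9l from those detected with or without it. RefSeq promoter windows of 300 bases (build GRCm38.p6, 250 bases before the start site and 50 after it) were found for 28 of the 35 genes. The pattern searched was a pair of GAAA runs with any 2 bases between them, on either strand, the core of the interferon-stimulated response element. It was present in 14 of the 28 genes and in 3.99% of the 27025 genes in the table. Capitals below mark the GAAA pair. The windows are chr4:156200769-156201068 for Isg15 (minus strand), chr19:34640639-34640938 for Ifit1 (plus strand), chr5:114922990-114923289 for Oasl1 (plus strand) and chr6:3399522-3399821 for Samd9l (minus strand), each printed 5′ to 3′ along its gene.
Isg15: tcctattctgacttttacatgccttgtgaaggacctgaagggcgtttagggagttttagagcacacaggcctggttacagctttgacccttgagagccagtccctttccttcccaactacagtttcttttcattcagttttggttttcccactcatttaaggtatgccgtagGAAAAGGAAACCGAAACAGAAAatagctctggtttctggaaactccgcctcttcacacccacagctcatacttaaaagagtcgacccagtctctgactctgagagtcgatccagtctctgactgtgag
Ifit1: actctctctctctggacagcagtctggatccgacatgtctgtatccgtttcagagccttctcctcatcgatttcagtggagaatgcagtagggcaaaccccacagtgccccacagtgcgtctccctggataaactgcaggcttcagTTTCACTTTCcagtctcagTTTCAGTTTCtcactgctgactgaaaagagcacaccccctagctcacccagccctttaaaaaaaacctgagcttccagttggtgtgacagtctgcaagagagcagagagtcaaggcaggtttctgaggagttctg
Oasl1: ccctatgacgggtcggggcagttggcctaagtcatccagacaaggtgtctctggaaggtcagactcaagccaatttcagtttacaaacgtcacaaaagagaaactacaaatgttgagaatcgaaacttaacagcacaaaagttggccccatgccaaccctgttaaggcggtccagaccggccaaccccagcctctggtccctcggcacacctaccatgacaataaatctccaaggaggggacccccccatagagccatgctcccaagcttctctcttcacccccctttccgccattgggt
Samd9l: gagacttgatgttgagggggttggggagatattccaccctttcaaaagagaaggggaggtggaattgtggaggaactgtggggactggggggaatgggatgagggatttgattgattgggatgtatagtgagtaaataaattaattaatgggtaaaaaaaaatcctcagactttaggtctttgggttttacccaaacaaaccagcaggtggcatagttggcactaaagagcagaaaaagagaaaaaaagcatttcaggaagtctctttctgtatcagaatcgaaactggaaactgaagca
In Isg15 the matches overlapped and began 78, 72 and 66 bases before the start site. In Ifit1 a pair of matches lay on the opposite strand. No match was in these windows of Oasl1 and Samd9l. The windows of Oasl2, Irf7, Xaf1 and Cmpk2, genes detected mostly with Isg15, held none either, and those of Stat2 and Eif2ak2 held 1 each. Other windows went the opposite way. Those of Oas3 and Rsad2, genes seldom detected without Isg15, held 1 each, and those of Lgals3bp and Ifi35 held none. Whether matches went with the way the genes were detected was not tested.

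In dataset 2 the 34 genes listed together took up 2217 CPM of the mature pit cells of pool K (53 cells) and 2002 of pool T (68 cells). Pre-pit cells had 622 and 685, isthmus cells 806 and 834, neck cells 674 and 719, parietal cells 646 and 608, and chief cells 260 and 257. Mature pit cells were thus above these 5 types in both pools, with no overlap. Of the 32 genes that passed the filter on low counts, 30 were called higher in mature pit than in pre-pit cells by edgeR's quasi-likelihood test at an adjusted p under 0.05, beside 6.52% of all 13894 genes tested, and 30 were called higher than in the mean of isthmus, neck, chief and parietal cells, beside 21.6%. Both contrasts chose the genes, so nothing is read from these counts. A gene that passes the filter only through mature pit cells had to differ. The median log2 fold change over pre-pit cells was 3.11 against -0.02 for all genes, and 2.84 when taken from the summed UMIs with the 3 genes at 0 in pre-pit cells set at a floor of 3 UMIs. In bulk sums of this kind, fewer cells with a transcript and less of it per cell cannot be told apart, and the values per cell follow below.

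**Figure D1:**
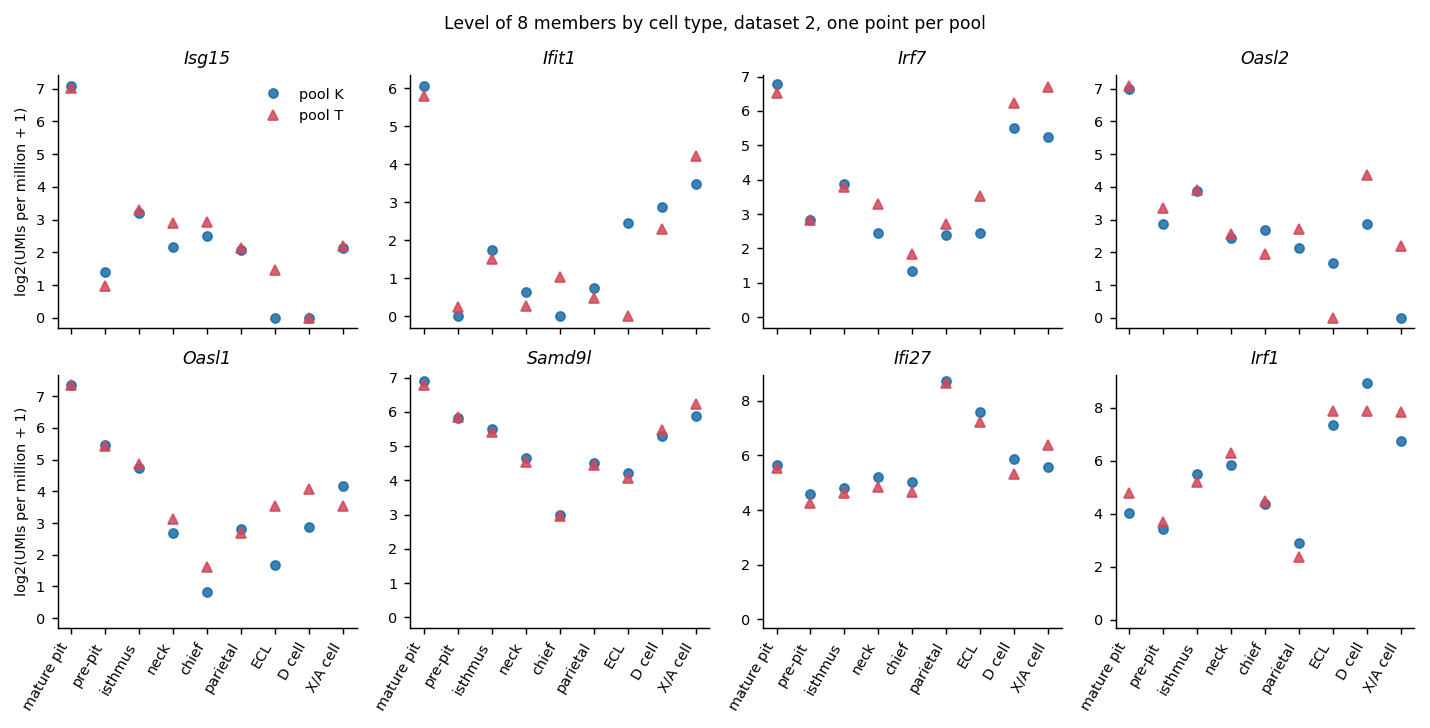
Level of Isg15, Ifit1, Irf7, Oasl2, Oasl1, Samd9l, Ifi27 and Irf1 by cell type in dataset 2, as log2(CPM + 1), each point 1 pool. Isg15 stands at 134 and 128 CPM in mature pit cells, while Irf1 stands highest in D cells, at 487 and 232 CPM.

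The IFIT genes, whose proteins bind viral RNA that lacks host marks, are given first. Ifit1 was at 65.6 CPM in mature pit cells of pool K and 54.7 of pool T, at 0 and 0.190 in pre-pit cells, at 2.32 and 1.86 in isthmus cells, and at 0.550 and 0.214 in neck cells. Only 1 of its UMIs was in pre-pit cells, so that its ratio, 565-fold, had a 95% counting interval from 101 to 22400. The interval treats UMIs as independent, although without 1 cell, described below, the level in pool K was 13.8 CPM. Ifit1bl1 was at 14.3 and 28.2 CPM in mature pit cells and had no UMI in pre-pit cells, which puts it at least 70.8-fold higher. All 31 of its mature pit UMIs in pool K were in the 1 cell of that pool described below. Ifit3 and Ifit3b had 16 UMIs each in mature pit cells and none in pre-pit cells, and Ifit2 had no UMI in either type but 25 in isthmus cells. Ifit1bl2, listed only in dataset 1, had no UMI in any pit cluster there. It was at 110 and 133 CPM in cluster 5-7, which carries duodenal enterocyte markers. The 6 genes lie together on chromosome 19, and Ifit3 and Ifit3b share 8.87% of the 60-base windows in the ends of their transcripts, so their counts are uncertain.

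Isg15 encodes the ubiquitin-like protein that is attached to others during the response. It was at 134 and 128 CPM in mature pit cells of pools K and T, against 1.64 and 0.949 in pre-pit cells, 8.11 and 8.87 in isthmus cells and 3.51 and 6.49 in neck cells. Its level in mature pit cells was 104-fold that of pre-pit cells. Usp18, which removes Isg15 from proteins and also limits interferon receptor signalling, was at 22.2 and 25.8 CPM in mature pit cells, and had only 1 UMI in pre-pit cells. Parietal cells held 7.36 and 5.32 CPM of Usp18 and chief cells 5.78 and 3.66, both above the isthmus values of 2.15 and 2.88.

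The OAS genes encode enzymes and relatives that respond to double-stranded RNA. Oasl1, which has been described as a brake on Irf7 translation, had 162.5 and 161.9 CPM in mature pit cells, 42.7 and 42.5 in pre-pit cells, 25.9 and 28.0 in isthmus cells and 5.36 and 7.70 in neck cells. It fell in that order in both pools. Oasl2 was at 127 and 134 CPM in mature pit cells and at 6.34 and 9.30 in pre-pit cells, and Oas1a at 88.2 and 62.9 against 14.8 and 14.2. Oas1a shares 60.3% of its end windows with Oas1g, so its counts are uncertain. Oas2 was at 38.8 and 43.7 CPM against 0.704 and 1.71 in pre-pit cells, and Oas3 at 11.1 and 19.6 with no UMI there.

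Among the transcription factors, Irf7, the amplifier of type I interferon, was at 109 and 91.1 CPM in mature pit cells, 6.10 and 6.07 in pre-pit cells and 13.6 and 12.7 in isthmus cells. Stat2 and Irf9, which act together in the response complex, were at 66.5 and 39.5 and at 44.8 and 25.1 CPM in mature pit cells, against 14.8 and 13.1 and 11.97 and 14.0 in pre-pit cells. Irf1 went another way. It was at 15.2 and 26.5 CPM in mature pit cells and at 9.86 and 11.95 in pre-pit cells. Neck cells taken whole had 56.4 and 77.9 and isthmus cells 44.1 and 35.5, so mature pit cells were below these sums in both pools. Among neck clusters, cluster 0 had 175 and 115 CPM, and clusters 2, 7 and 12 had 18.4 to 30.3. In pool K mature pit cells were below every neck and isthmus cluster. In pool T they were above neck clusters 2 (22.1) and 12 (24.3) and isthmus cluster 9 (25.4).

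The sensors Ifih1 (MDA5, a sensor of long double-stranded RNA), Zbp1 (a sensor of Z-form nucleic acid) and Eif2ak2 (PKR, a kinase that halts translation) were higher in mature pit cells by 3.53-fold, 18.8-fold and 2.05-fold over pre-pit cells. Eif2ak2 was at 43.4 and 37.8 CPM in mature pit, 19.7 and 19.5 in pre-pit, 27.3 and 26.9 in isthmus and 23.9 and 23.1 in neck cells. Parp9 was at 33.3 and 32.7 CPM against 10.3 and 10.8 in pre-pit cells, and its neighbours on chromosome 16, Dtx3l, the ubiquitin ligase it pairs with, and Parp14, were at 30.9 and 22.3 and at 28.2 and 21.3 CPM.

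Of the other effectors, Lgals3bp, a secreted glycoprotein, was at 582 and 530 CPM in mature pit cells, 299 and 356 in pre-pit cells and 387 and 422 in isthmus cells. Samd9l, an antiviral regulator of translation, was at 118 and 110 CPM, with 55.4 and 56.2 in pre-pit, 43.9 and 41.6 in isthmus and 24.1 and 22.3 in neck cells. Bst2 (tetherin, which holds budding virus at the membrane) was at 108 and 85.3 CPM against 24.2 and 22.4 in pre-pit cells. Ifi35 was at 61.0 and 58.4 against 25.1 and 25.2. Isg20, an exonuclease, differed least, at 27.2 and 27.8 CPM against 23.5 and 20.5, and neck cells were above both at 44.5 and 53.3. Ifi27 was at 49.4 and 45.0 CPM in mature pit cells and at 425 and 401 in parietal cells. Rtp4 (58.2 and 49.9), Xaf1 (37.9 and 30.9), Cmpk2 (34.2 and 13.4), Rsad2 (viperin, 37.4 and 16.5), Ifi44 (18.47 and 8.25) and Trim30a (7.85 and 14.1) were at 0 to 5.69 CPM in pre-pit cells.

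One mature pit cell of pool K carried 1011 UMIs of these genes and 33 of the genes, or 21.1% of its pool's total. Without it Ifit1 fell from 65.6 to 13.8 CPM in pool K, Isg15 from 134 to 61.9, Rsad2 from 37.4 to 3.81 and Cmpk2 from 34.2 to 15.2, while Samd9l stood at 115 and Oasl1 at 129 CPM. Ifit1bl1 fell from 31 UMIs to 0 in pool K and Ifit3b from 6 to 0. The summed level without that cell was 1803, still above every other large epithelial type of both pools.

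To see how the genes were spread over cells, each cell was thinned to 10000 UMIs and the number of these genes with a UMI was counted. Mature pit cells had a median of 7 (range 0 to 28, 117 cells), pre-pit cells 3 (0 to 13, 291 cells) and isthmus cells 4 (0 to 25, 1279 cells). At least 10 genes, a limit set after the values were seen, were found in 19 of 50 mature pit cells of pool K (38.0%, exact binomial 95% interval 24.7 to 52.8%) and in 27 of 67 of pool T (40.3%, 28.5 to 53.0%). The same held in 5 of 291 pre-pit cells and in 4.62% and 4.19% of isthmus cells. Without thinning, 39 of 53 and 46 of 68 mature pit cells had at least 10. On every one of the 12 plates 1 to 9 such mature pit cells were found, and 26 cells lay at 8 to 12 genes, close to the limit. The 46 mature pit cells with at least 10 genes held 77.9% of the thinned UMIs of these genes in mature pit cells. They were shallower than the other 71 (median 34042 against 47785 UMIs before thinning), and their mitochondrial share was 4.25% against 4.39%. The number of genes and the UMIs of a cell had a Spearman rho of -0.39, and the part of depth in this was not tested.

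**Figure D2:**
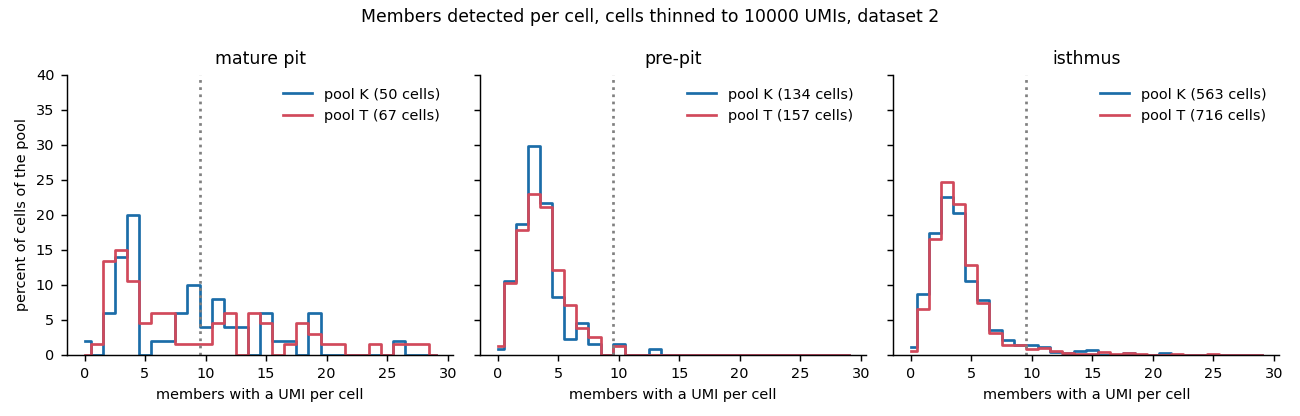
Percent of cells of each pool by the number of interferon-stimulated genes with a UMI, after thinning each cell to 10000 UMIs. The dotted line lies just below 10 genes, and to its right are 46 of 117 mature pit cells and 5 of 291 pre-pit cells.

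In the same thinned cells, the cells with at least 10 genes had lower medians of pit markers (Gkn2 440 against 581 UMIs, Muc5ac 24 against 45) and higher ones of Tff2 (149.5 against 84) and Pgc (79 against 42), and B2m, the light chain of class I antigen presentation, was at 14 against 3 UMIs. No UMI of Ptprc, Cd3d, Lyz2, Pecam1 or Col1a1, markers of leukocytes, endothelium and fibroblasts, was found in either range. What part these marker differences have was not tested.

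Detection of Isg15 divided the genes. In the 41 mature pit cells with an Isg15 UMI, Oasl2 was present in 90.2% against 26.3% of the 76 others, Irf7 in 85.4% against 13.2%, Oas2 in 61.0% against 5.26% and Ifit1 in 39.0% against 2.63%. Oasl1 was in 68.3% against 60.5% and Samd9l in 70.7% against 53.9%, and Lgals3bp in 100% against 82.9%. Oasl1 and Samd9l were thus found in most cells without Isg15, while Ifit1 and Oas2 were in few of them. The promoters shown above were picked with these shares known. Across the 117 cells each gene's correlation with the sum of the other members had a Spearman rho of 0.79 for Oasl2, 0.74 for Isg15, 0.71 for Lgals3bp, 0.70 for Irf7, 0.28 for Oasl1, 0.18 for Irf1 and 0.15 for Samd9l. These cells share libraries and were thinned to the same depth.

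**Figure D3:**
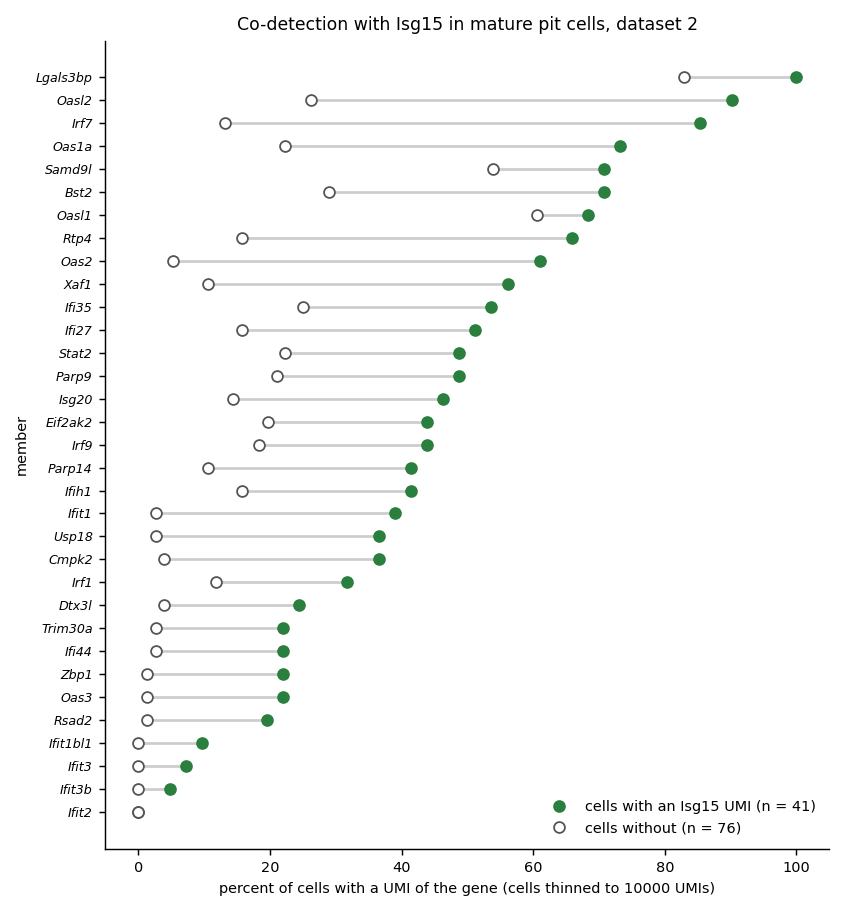
Percent of mature pit cells with a UMI of each gene, in cells with an Isg15 UMI (filled, 41 cells) and without (open, 76 cells), after thinning to 10000 UMIs. Oasl2 stands at 90.2% against 26.3%, while Oasl1 stands at 68.3% against 60.5%.

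Outside the chosen genes and the listed pathway genes, the 10 genes whose thinned UMIs followed the sum of the chosen genes most closely across these 117 cells, of 5737 genes ranked, were B2m (rho 0.78), Ly6e (0.73), Rnf213 (0.63), H2-D1 (0.62), H2-K1 (0.57), Ifi27l2b (0.46), Nampt (0.43), Samhd1 (0.40), Ppic (0.37) and Strbp (0.37). B2m, H2-D1 and H2-K1 form class I antigen presentation.

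Other interferon pathway genes were taken from a list of 89 genes that were not members. In dataset 2, 40 of the 71 that passed the filter were called higher in mature pit than in pre-pit cells and 1, Ifitm2, lower, at 13.9 and 11.7 CPM against 35.9 and 36.8. Of all 13894 genes, 906 (6.52%) were higher and 533 lower, and since this contrast chose the members nothing is read from the counts. None of the 6 receptor genes was called, although all 6 were measured. Ifngr1, the ligand-binding chain of the interferon gamma receptor, was at 131 and 154 CPM in mature pit and 116 and 129 in pre-pit cells, and Ifnlr1, of the type III receptor, at 15.2 and 11 against 10.8 and 9.11. Ifnar1 and Ifnar2, the type I receptor, were at 12.9 and 10.7 and at 2.77 and 2.75 CPM in mature pit cells, and Ifnar2 was at 20.3 and 18.2 in neck cells. The kinases Jak1, Jak2 and Tyk2 were not called. Of the ligands, Ifnab, Ifne and Ifnk had at most 0.379 CPM in every epithelial type, and Ifng was found only in the leukocyte cluster of pool T. There it had 2 UMIs over 5 cells, or 33.2 CPM, below the floor of 49.8 CPM that 3 UMIs would give. Among the most counted others, Lgals9 was at 909 and 1013 CPM in mature pit cells, 368 and 396 in pre-pit cells and 43.5 and 43.4 in chief cells. Tapbp, an assembly factor of class I presentation, was at 126 and 127 CPM against 83.8 and 87.5. Irf3 and Ptpn2 were not called.

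Contrasts between types other than mature pit cells were not used to choose the genes, but the levels of these types entered the choice. Their tests are therefore not free of it. They are given here with edgeR's quasi-likelihood test over all 13894 genes. Fold changes use TMM scaling factors between the sums, whereas CPM are per library total. Without the factors the median of all genes moved from -0.07 to -0.89 on the log2 scale between chief and neck cells, from 0.00 to -0.21 between pre-pit and isthmus cells, from -0.07 to -0.26 for parietal cells and from -0.06 to 0.01 between isthmus and neck cells, so changes below are relative to that median. Pre-pit cells are the earlier stage of the pit lineage, so this contrast asks whether the genes already differ at that step. Between pre-pit and isthmus cells, 2 genes were higher in pre-pit cells and 8 lower, beside 12.3% and 15.5% of all genes, and the median was -0.48 against 0.00. Oasl1 was 0.87 higher on the log2 scale (SE 0.13, adjusted p = 0.000261), with 42.7 and 42.5 CPM against 25.9 and 28.0, and Samd9l 0.60 higher (SE 0.08, adjusted p = 9.4e-05). Isg15 fell by 2.53 (SE 0.39, adjusted p = 0.000307), from 8.11 and 8.87 in isthmus to 1.64 and 0.949 CPM. Isthmus cluster 6 had the highest Isg15 level, at 20.6 and 20.9 CPM. The other isthmus clusters had 1.83 to 13.8, each above pre-pit cells of the same pool. Ifit1 was likewise highest in cluster 6, at 7.05 and 5.56 CPM, with 0.178 to 1.88 in the others. Irf1 fell by 1.64 (SE 0.26), Oas2 by 1.66 (SE 0.48), Irf7 by 0.90 (SE 0.29) and Bst2 by 0.39 (SE 0.13). Usp18, Ifit1 and Trim30a were also called lower, and had 1, 1 and 2 UMIs in pre-pit cells. The isthmus level of Ifit1 was 19.7-fold that of pre-pit cells, with a 95% counting interval of 3.46 to 784. With pools as a block, 13 genes were called, with Ifi44, Oasl2 and Rtp4 added. Without scaling factors 2 were higher and 15 lower, beside 4.58% and 27.3%. Bst2 was not called by DESeq2 (adjusted p = 0.0790), nor Ifit1 without the 1 cell of pool K described above (adjusted p = 0.0645). Tests on the pathway list gave 7 higher and 13 lower of 71.

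Against neck cells, isthmus cells had 11 genes higher and 7 lower, beside 24.3% and 26.4% of all genes, so both shares were near those of all genes. Oasl1 rose by 1.98 (SE 0.15, adjusted p = 1.16e-07), at 25.9 and 28.0 against 5.36 and 7.70 CPM. Oas2 rose by 2.87 (SE 0.41), with 3.78 and 5.38 against 0.688 and 0.499 CPM, Oasl2 by 1.52 (SE 0.20), Ifit1 by 2.33 (SE 0.46) and Irf7 by 0.92 (SE 0.22). Among the isthmus clusters Ifit1 was highest in cluster 6, as given above. Oas3 also passed, with 1 UMI in neck cells. Trim30a fell by 1.65 (SE 0.30), Isg20 by 0.93 (SE 0.13), with 25.3 and 28.3 against 44.5 and 53.3 CPM, Irf1 by 0.83 (SE 0.18) and Stat2 by 0.68 (SE 0.14). Without scaling factors 11 were higher and 5 lower, beside 27.8% and 22.5%, and Ifih1 and Parp14 were no longer called lower. Irf1 and Stat2 pointed the other way from the Oas and Oasl genes. The tissue dissociation response list was at 4962 and 8233 CPM in isthmus cells, and its part was not tested.

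Chief cells, which secrete pepsinogen, against neck cells had 4 genes higher and 11 lower, beside 18.6% and 19.9%. Lgals3bp fell by 1.42 (SE 0.12, adjusted p = 1e-06), from 294 and 304 to 62.4 and 64.8 CPM. Trim30a fell by 2.39 (SE 0.64), Dtx3l by 1.52 (SE 0.30), Oasl1 by 1.25 (SE 0.42), Oas1a by 1.16 (SE 0.31) and Parp14 by 1.16 (SE 0.31). Usp18 rose by 2.08 (SE 0.40), and was called higher with and without scaling factors. Rtp4, at 5.78 and 12.8 CPM against 6.60 and 9.70 in neck cells, Isg15 and Ifi27 were called higher only with the factors. Without them their differences were 0.26, 0.20 and -0.21, Usp18 was the 1 gene higher and 18 genes were lower, beside 5.12% and 65.4% of all genes. Oasl1 was not called when plates were the unit (adjusted p = 0.0847), or without the 1 cell of pool K (0.0594), nor were Ifi35 and Parp9 under DESeq2 (0.120 and 0.114).

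Parietal cells, against the mean of isthmus, neck and chief cells, had 3 genes higher and 18 lower, beside 33.8% and 34.1%. Without scaling factors 2 were higher and 20 lower, beside 27% and 42.4%, and Samd9l was no longer called higher. Isg20 fell by 4.31 (SE 0.18, adjusted p = 5.55e-11), to 1.52 and 1.62 CPM. Zbp1 was also called lower, with 1 UMI in parietal cells, and its isthmus level was 25.4-fold the parietal one with a 95% counting interval of 4.30 to 1030.0. Cmpk2 fell by 3.21 (SE 0.43), Irf1 by 2.63 (SE 0.22), Rtp4 by 2.26 (SE 0.30) and Oas1a by 2.14 (SE 0.23). Oas2 fell by 1.94 (SE 0.57). Ifi27 rose by 4.06 (SE 0.09, adjusted p = 7.83e-14), to 425 and 401 CPM from 23.7 to 35.96 in the 3 other types. Ifi27 protein is mitochondrial, and the mitochondrial share of parietal cells had a median of 20.5% in pool K and 18.2% in pool T, above the other large types; its part was not tested.

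**Figure D4:**
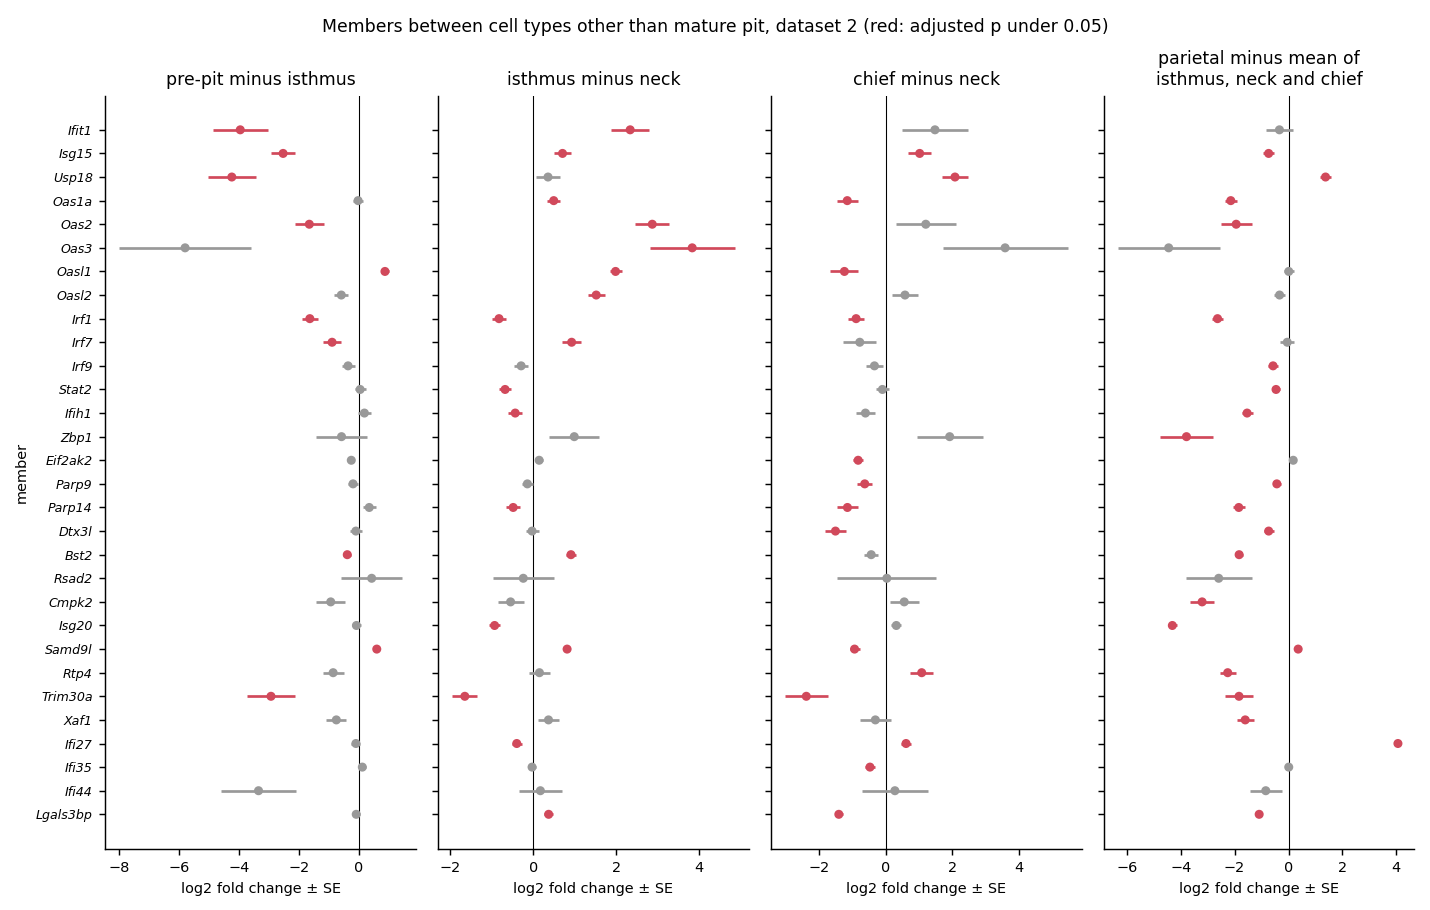
Log2 fold change with its SE of 30 of the genes in 4 contrasts of dataset 2, red where the adjusted p was under 0.05. The contrasts did not choose the genes, but the levels of these types entered the choice. The 2 genes with under 10 UMIs in these types are left out. Among the genes called, Ifi27 in parietal cells (4.06) and Isg20 there (-4.31) lie farthest from 0.

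In dataset 1 the summed level was 777 and 854 CPM in corpus mature pit cells (13 and 13 cells), 746 and 662 in antrum mature pit cells (29 and 20), 516 and 599 in corpus pre-pit, 572 and 430 in isthmus-like cells, and 1164 and 538 in antrum pre-pit cells. Isg15 had no UMI in corpus mature pit cells of either pool (a count of 0 allows up to 3.30 CPM in pool 1 and 3.80 in pool 2), and Ifit1 had none there. These limits lie below the levels of both genes in the mature pit cells of dataset 2. They treat UMIs as independent, although in dataset 2 Isg15 had a UMI in 41 of 117 thinned mature pit cells and Ifit1 in 18. Only 13 cells a pool were sampled in dataset 1. Protocol, mice and the number of cells differed with the dataset and cannot be told apart. Oasl1 and Samd9l were present at 241 and 168.3 and at 100 and 105 CPM in corpus mature pit cells, against 97.4 and 97.1 and 53.0 and 76.8 in corpus pre-pit cells. These were the 2 of 17 genes tested that were called higher, beside 7.08% of all 10229 genes, and the contrast was one that chose the genes. Only 1 of 49 antrum and 0 of 26 corpus mature pit cells had at least 10 genes after thinning, which for the corpus allows up to 24.7% in each pool. The antrum pit markers Krt7 and Krt20 were at 1603 and 1554 CPM in the antrum mature pit cells and at 117 and 68.3 in those of the corpus.

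The rise of the antrum pre-pit level in pool 1 stood with 1 cell, which held 433 UMIs of 33 genes, or 51.4% of its pool's total. Without it, Isg15 fell from 26 UMIs to 0, Ifit1 from 23 to 0 and Oasl2 from 49.8 to 1.45 CPM, and the summed level from 1164 to 594. From antrum pre-pit to antrum mature pit cells, Oasl1 was called higher and Oasl2 lower, of 17 tested and beside 14.0% of all genes, and without that cell Oasl1 alone was called. This contrast also chose the genes, so nothing is read from it. Between antrum and corpus mature pit cells, Lgals3bp fell by 0.79 (SE 0.20, adjusted p = 0.029), with 195 and 153 CPM in antrum against 268 and 352 in corpus, beside 4.29% of genes. The adjusted p was 0.0640 by DESeq2 and 0.0852 with plates as the unit. Whether the antrum step differed from the corpus step was tested by an interaction, which called 0 of 17 genes (5 at an unadjusted p under 0.05, and 0 by DESeq2), beside 0.0293% of all genes. The interaction is made of both steps that chose the genes, and it includes the antrum pre-pit cell of 433 UMIs. With so few genes called in all, it does not show that the steps were alike, and nothing is read from it.

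Between pools T and K, 0 of 30 genes were called in mature pit cells (4 unadjusted, 1 by DESeq2, Irf9), beside 1.28% of all 10972 genes. Isthmus cells gave 0 (1 unadjusted, 0 by DESeq2), beside 3.2%. In neck cells Irf1 was called, higher in pool T by 0.51 (SE 0.14, adjusted p = 0.0156), at 77.9 against 56.4 CPM, beside 7.03%; DESeq2 did not call it (0.159). Within the neck clusters the direction was mixed. Irf1 was lower in pool T in cluster 0, where it was highest (115 against 175 CPM), and in cluster 12 (24.3 against 30.3). It was higher in pool T in cluster 2 (22.1 against 18.9) and cluster 7 (28.9 against 18.4). After thinning, cluster 0 held 334 neck cells of pool T and 135 of pool K, and the part of this mix was not tested. The tissue dissociation response list was at 13130 CPM in the neck cells of pool T and 5342 in those of pool K, and its part was not tested. The pool difference of mature pit cells minus that of isthmus cells gave 0 genes (4 unadjusted, 0 by DESeq2), beside 0.292%. Each of these tests rests on plates of 1 pool of mice a side, so its p-values measure the spread between plates.

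Of the smaller types in dataset 2, D cells had summed levels of 1820 and 1710 CPM, X/A cells 1222 and 1616 and ECL cells 1222 and 1371. Irf1 was at 487 and 232 CPM in D cells, 164.1 and 235 in ECL cells and 108 and 227 in X/A cells, and Isg20 at 145 and 173, 160 and 187, and 138 and 149. Isg15 had no UMI in D cells of either pool. Among types of at least 20 cells, mature pit cells had the highest mean level for 20 of 34 genes. That comparison chose the genes and its share over all genes was not computed, so nothing is read from the count. For 7 genes the highest mean lay in the cluster of tuft and stromal cells (32 cells, 959 and 1526 CPM summed, on few UMIs). They were Samd9l (125 and 178 CPM), Stat2, Irf9, Dtx3l, Cmpk2, Parp14 and Ifit3. D cells were highest for 3 genes, and X/A, ECL, parietal and isthmus cells for 1 each. Rsad2 was the gene of X/A cells, at 43.9 and 106 CPM against 37.4 and 16.5 in mature pit cells. In dataset 1 the highest mean lay in corpus mature pit cells for 3 genes and in antrum mature pit cells for 1. It lay in cluster 5-7 for 13, in cluster 9 for 9, in parietal cells for 1 and in antrum pre-pit cells, with the cell described above included, for 8. In dataset 1, cluster 5-7, with duodenal enterocyte markers at 36890 and 32250 CPM, had 1396 and 1630 CPM of these genes. The 9 endothelial cells of dataset 2 had 3132 and 5402 CPM and the 13 leukocytes 2280 and 2724, on few UMIs.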

How the data were processed

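Single cells of mouse stomach were profiled by Quartz-Seq2. The authors aligned reads to GRCm39 with Gencode M27 annotation and deposited whole-number UMI counts per gene and cell, with cells under 2500 detected genes removed, cluster names, and each cell's mitochondrial percent. Cluster names and pools were taken from the deposited annotation. UMIs were summed per type and pool (12 sums in dataset 2, 14 in dataset 1), or per type and plate (72 sums) for pool contrasts, and tested with edgeR 4.0.16 in R 4.3.3 (TMM, filterByExpr, quasi-likelihood test, Benjamini-Hochberg over all genes tested, adjusted p under 0.05). Doublets were not called. The scripts were tested on simulated data. Genes were chosen, and their lists made, with earlier results of these data known. Some pathway genes are not reported here. Every member is named; values are given for the 12 with most UMIs and for those called in contrasts outside the rule, at most 8 a contrast. Within a pool, every type was taken from 1 set of mice, which pairs the sums; deviations of same-pool sums correlated at 0.07 to 0.41 in dataset 2 (12 of 15 pairs over 0.1) and at -0.03 to 0.05 in dataset 1. Alternatives were RLE factors, no filter, DESeq2 1.42.0, a pool block, plates as units, thinning, and leaving out a pool and, chosen after seeing the data, leaving out 1 cell or the TMM factors. Intervals cover counting error only.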

Additional observations from a re-analysis of the deposited data

How the results depend on the processing

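With 2 pools a dataset, precision is limited by the number of pools, and genes with 1 to 3 UMIs in a type have wide counting intervals. Without the filter on low counts, the number of these genes called was 8 (1 higher, 7 lower) from antrum pre-pit to antrum mature pit beside 6.99% of all genes, in a contrast that chose the genes and with the 1 antrum pre-pit cell of 433 UMIs included. It was 2 between antrum and corpus mature pit (2.77% of all), 1 for the interaction of the steps (0.427%), 1 between pools in mature pit cells (0.927%), 1 in isthmus cells (1.83%), 4 in neck cells (2.85%) and 1 for the pool difference of mature pit minus isthmus (0.424%). Without scaling factors, chosen after seeing the data, 17 were called for pre-pit minus isthmus, and Ifi27 in chief minus neck turned from 0.61 to -0.21 (adjusted p = 0.270, edgeR) and Isg20 there from 0.31, not called, to -0.50 (adjusted p = 0.00869). DESeq2 called 1 in the corpus step, 1 in the antrum step, 0 between antrum and corpus mature pit cells and 1 between pools in mature pit cells. With plates as the unit these were 1 for the antrum step and 0 for antrum against corpus. Thinned cells gave 2 in neck cells between pools. Without the 1 cell with the most UMIs of these genes, the antrum step had 1 and the pools in mature pit cells 1 (Ifit1, higher in pool T). The causes were not tested. Median genes per cell were 14 and 5 in mature pit cells without thinning and at 5000 UMIs, 7 and 2 in pre-pit cells, and 8 and 2 in isthmus cells.

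Leaving out a pool, the median log2 fold change ranged from 2.78 to 3.19 for mature pit minus pre-pit, 2.92 to 3.39 for mature pit minus the 4 others, -0.40 to -0.32 for pre-pit minus isthmus, 0.18 to 0.29 for isthmus minus neck, -0.93 to -0.92 for parietal, -0.53 to -0.32 for chief minus neck, 0.62 to 0.65 for the corpus step, -0.056 to 0.28 for the antrum step, -0.13 to 0.26 for antrum minus corpus mature pit, and -0.71 to -0.058 for the difference of steps. The replicate block of pools gave 31 genes called for mature pit minus pre-pit (adding Irf1) and 31 against the 4 others (adding Ifi27, lower), 13 for pre-pit minus isthmus (adding Ifi44, Oasl2 and Rtp4), and changed no other count of calls. The contrasts with mature pit cells in these 2 counts chose the genes. For the genes followed singly, counting each gene, contrast and alternative, the threshold was gained 22 times (8 genes) and lost 16 times (9 genes), and in these counts only Ifi27 and Isg20 above reversed.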
